A study of Homo sapiens with 6 samples.

Results

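Ribosomal protein pseudogenes are copies of ribosomal protein genes that carry the parent gene's symbol followed by P and a number. They were found in the deposited gene table by that symbol pattern, for RPL and RPS symbols with a family number, and were kept where their counts summed to at least 120 over the 6 libraries. The members were thus chosen by their summed count over both groups, so their being expressed is not a result. Of 56303 genes in the table, 931 had such a symbol, 659 of these had at least 1 count, 272 had 0 counts, and 145 reached the minimum. The 145 pseudogenes belonged to 46 parent genes, 16 of which had a single member here. The last 3 inside the minimum were RPL18AP7 with 124 counts, RPL15P20 with 122 and RPS24P17 with 121, and the first 3 outside it were RPL23AP58 with 119, RPL15P18 with 116 and RPL21P11 with 113.

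The libraries came from SW480, an established human colorectal cancer line, labelled wild type in genotype. One group of 3 carried a lentiviral nonsilencing short hairpin RNA (shCtrl), and the other group of 3 carried a hairpin against MORC2 (shMORC2), a chromatin-associated ATPase known for a part in gene silencing. The methods describe stable clonal lines selected with puromycin and do not say how many lines each group held, so differences between lines and those of the knockdown cannot be told apart. The replicates are described as 3 replicate experiments per group and called independent, without saying whether each was a separate infection or culture, so p-values measure the spread between these libraries, whatever its source. Library totals were 42092664 to 43434425 counts. Levels are given as CPM, the counts scaled to a common library total. MORC2 itself was at 46.1, 46.4 and 48.8 CPM in shCtrl and at 35.0, 29.3 and 27.2 CPM in shMORC2. The groups did not overlap and MORC2 fell by 0.63 ± 0.10 (SE, n = 3 per group) on the log2 scale (edgeR quasi-likelihood test, Benjamini-Hochberg adjusted p = 0.000216). Of 9 epithelial markers, 8 were tested. CEACAM5, a surface glycoprotein, fell (-1.08 ± 0.23, adjusted p = 0.00265) and CDX2, an intestinal transcription factor, rose (0.47 ± 0.14, adjusted p = 0.0158, kept in 8 of 11 alternatives), and with the replicate block KRT19 was called lower and CDH1 higher as well. KRT8, the most abundant of them, was at 15380 ± 2261 CPM in the shCtrl group and 15071 ± 2521 CPM in the shMORC2 group (SD, n = 3) and was not called, while CDX1, a related transcription factor, was near 0 (0.0543 and 0.0160 CPM) and did not pass the filter. The part of these marker differences in the results that follow was not tested.

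Most ribosomal protein pseudogenes are processed copies. A messenger RNA of the parent was reverse transcribed and inserted into the genome, so the copy lacks introns and arrives without the parent's promoter, and any transcript of it depends on the surroundings of the insertion. Ribosomal protein messenger RNAs are abundant in nearly all cells, and their genes have among the most processed copies in mammalian genomes. Since a young copy is nearly identical to its parent, a sequencing read from the parent can be assigned to the copy and the other way round. The newer annotation used here for positions (GENCODE v44, GRCh38) held 142 of the 145 symbols, of which 127 were processed pseudogenes, 13 transcribed processed pseudogenes and 2 transcribed unprocessed pseudogenes. By the exon positions deposited with the counts, rather than by that annotation, 135 of the 145 members had a single exon.

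The RPL23A family is shown first because it had the most members and because 4 of its copies were among the pseudogenes with the largest differences between the groups. The stretches are coding bases 121 to 210 of RPL23A, counted from the first base of the start codon, and the matching bases of 5 copies, read from GRCh38 in the 5′ to 3′ direction of the gene. This stretch was taken because, of all 90 bases aligned without gaps, it held the most differences summed over the 5 copies. Capitals mark bases that differ from the parent.
RPL23A: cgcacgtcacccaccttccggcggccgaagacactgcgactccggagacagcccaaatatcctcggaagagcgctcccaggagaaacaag
RPL23AP42: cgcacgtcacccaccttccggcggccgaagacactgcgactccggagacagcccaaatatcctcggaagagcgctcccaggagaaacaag
RPL23AP57: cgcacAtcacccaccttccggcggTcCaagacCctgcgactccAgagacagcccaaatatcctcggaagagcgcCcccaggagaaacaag
RPL23AP18: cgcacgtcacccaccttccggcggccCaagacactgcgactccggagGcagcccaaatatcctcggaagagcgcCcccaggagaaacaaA
RPL23AP51: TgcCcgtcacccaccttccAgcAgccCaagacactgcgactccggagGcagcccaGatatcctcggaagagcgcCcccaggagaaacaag
RPL23AP49: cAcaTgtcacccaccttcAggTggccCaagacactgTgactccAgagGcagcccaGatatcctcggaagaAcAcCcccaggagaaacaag
The stretches of the copies lie at chr3:161429388-161429477 (minus strand) for RPL23AP42, chr9:6639262-6639351 (plus strand) for RPL23AP57, chr1:212309309-212309398 (minus strand) for RPL23AP18, chr7:7742339-7742428 (minus strand) for RPL23AP51 and chr3:75624946-75625035 (minus strand) for RPL23AP49. RPL23AP42 was identical to the parent here and differed at 2 bases of the whole coding sequence, G348C and C377T (parent base, coding position, pseudogene base). The other 4 copies differed at 4 to 12 of the 90 bases, and all 4 carried G147C and T195C.

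Among the 145 pseudogenes, 56 rose in shMORC2, 6 fell and 83 did not pass an adjusted p of 0.05. Over all 21005 genes tested, 19.9% were called higher and 19.6% lower, while of the pseudogenes 38.6% were called higher and 4.14% lower. All 145 passed the filter on low counts. The log2 fold changes had a median of 0.36 and ran from -0.80 to 2.93, beside a median of -0.0056 over all genes tested, and 117 of the 145 were above 0. Every shMORC2 library was above every shCtrl library in 68 pseudogenes, beside 25.1% of all genes tested, and below in 9, beside 25.1%. A log2 fold change of at least 1 was reached by 18 of the called pseudogenes, all 18 of them higher. At that size 1034 of all 21005 genes tested were called higher and 593 lower. With the replicate number as a block, 66 were called higher, beside 24.4% of all genes, and 8 lower, beside 24.5%, and the 62 calls were all kept. Without the second shCtrl library, the count of called higher pseudogenes was 35. In that fit 3313 of all genes were called higher, beside 4185 with all 6 libraries, and the members' median log2 fold change was 0.32.

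**Figure D1:**
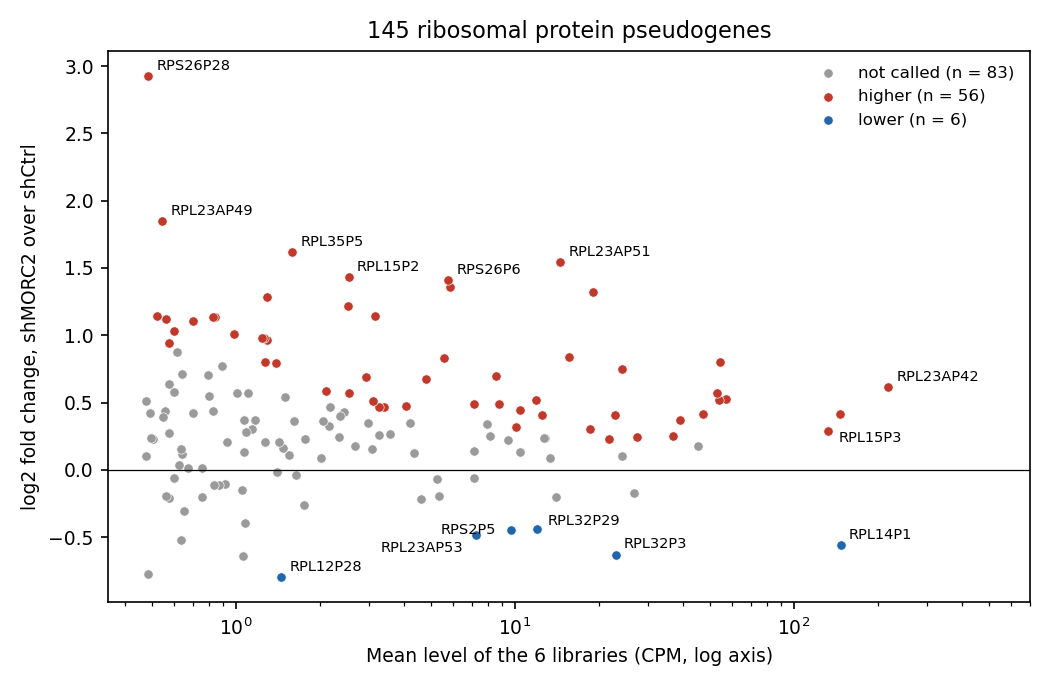
The log2 fold change of each of the 145 ribosomal protein pseudogenes (shMORC2 over shCtrl, vertical axis) against its mean level in the 6 libraries (CPM, log axis), coloured by call at an adjusted p of 0.05. The 56 called higher span the whole range of levels, from RPS26P28 near the bottom of it to RPL23AP42 at the top, and the 6 called lower reach -0.80.

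Summed over the 145 pseudogenes, the level was 1464, 1433 and 1477 CPM in shCtrl and 1804, 1782 and 1877 CPM in shMORC2, with means of 1458 ± 22.9 and 1821 ± 49.8 CPM (SD, n = 3 each). The groups did not overlap, and the log2 ratio of the means was 0.32. The 46 parent genes summed to 40893 ± 2730 CPM in the shCtrl group and 41102 ± 2230 CPM in the shMORC2 group, a log2 ratio of 0.0073. As a percentage of their parents' summed level, the pseudogenes were at 3.87, 3.42 and 3.43% in shCtrl and at 4.67, 4.15 and 4.50% in shMORC2. Thus each shMORC2 library was above each shCtrl library for this percentage too. The 8 members with the most counts held 51.4 to 54.1% of the members' counts in each library, and the remaining members still summed to 693 ± 17.2 CPM in shCtrl against 863 ± 40.3 CPM in shMORC2. The sums were not tested, since the members were chosen with earlier results of these data known.

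The most counted member was RPL23AP42, a copy of RPL23A, which encodes a protein of the large ribosomal subunit. It was at 189, 156 and 170 CPM in shCtrl and at 277, 242 and 269 CPM in shMORC2. The groups did not overlap and RPL23AP42 rose by 0.61 ± 0.09 (SE) on the log2 scale (adjusted p = 0.000122). RPL23A itself was at 2719, 2673 and 3065 CPM in shCtrl and at 3239, 3417 and 3464 CPM in shMORC2 and rose by 0.26 ± 0.08 (adjusted p = 0.0237), a call that was kept in 7 of 11 alternatives. RPL23AP42 counts were 6.12 ± 0.74% of RPL23A counts in shCtrl and 7.81 ± 0.73% in shMORC2 (SD, n = 3). Per kilobase of the deposited gene length, which takes in every exon of a gene, RPL23AP42 was at 365 ± 34.9 RPKM and RPL23A at 998 ± 75.9 RPKM in shCtrl. The copy was 99.6% identical to the RPL23A transcript and kept an open reading frame of 471 bases, as long as the parent's. Only 23.9% of its 75-base windows occurred once in the genome and in no RPL23A transcript, and 73.8% also occurred in an RPL23A transcript. It lies at chr3:161429127-161429597 on the minus strand, opposite exons of the long noncoding RNA gene LINC02067.

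Among the other 7 most counted members, 6 were called higher and 1 lower. Of all genes tested with at least 600 counts, 22.8% were called higher and 24.3% lower. RPL6P27, a copy of the large-subunit gene RPL6, was at 120, 123 and 132 CPM in shCtrl and at 158, 178 and 166 CPM in shMORC2. Its groups did not overlap and it rose by 0.42 ± 0.08 (adjusted p = 0.000837), while RPL6 was at 1260 ± 51.5 CPM in the shCtrl group and 1231 ± 64.8 CPM in the shMORC2 group and was not called (log2 fold change -0.03 ± 0.08). RPL7P9 was at 46.2, 47.0 and 47.2 CPM in shCtrl and at 70.2, 66.2 and 66.0 CPM in shMORC2, a rise of 0.53 ± 0.07 (adjusted p = 9.62e-05). Its parent RPL7, of the large subunit, was at 1290 ± 56.6 and 1201 ± 47.7 CPM in shCtrl and shMORC2 and was not called. RPS3AP26, in an intron of BAIAP2L1 on the same strand, was at 42.5, 42.2 and 43.3 CPM in shCtrl and at 64.5, 60.1 and 65.2 CPM in shMORC2. It rose by 0.57 ± 0.07 (adjusted p = 6.31e-05), whereas neither its parent RPS3A, of the small subunit (-0.11 ± 0.08), nor its host BAIAP2L1 (-0.26 ± 0.11) was called, though BAIAP2L1 was with the replicate block (adjusted p = 0.000588). RPL13AP25 was at 43.9, 47.8 and 40.8 CPM in shCtrl and at 64.7, 59.3 and 66.5 CPM in shMORC2, a rise of 0.52 ± 0.08 (adjusted p = 0.00032). Its parent RPL13A was at 2879 ± 302 and 2845 ± 175 CPM and was not called. In these 4 cases the pseudogene was separate between the groups and the parent was not.

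The 3 other most counted members differed together with their parents. RPL9P9 was at 36.5, 41.7 and 40.6 CPM in shCtrl and at 62.5, 71.1 and 73.9 CPM in shMORC2 and rose by 0.81 ± 0.09 (adjusted p = 1.57e-05). It lies opposite to an intron of UBE2Q2P2, annotated as a long noncoding RNA gene, which was at 10.9, 11.4 and 10.1 CPM in shCtrl and at 8.36, 7.21 and 7.19 CPM in shMORC2 and fell by 0.51 ± 0.11 (adjusted p = 0.00295). Host and pseudogene thus differed in opposite directions. RPL9, its parent in the large subunit, was at 204, 233 and 238 CPM in shCtrl and at 270, 309 and 311 CPM in shMORC2 and rose by 0.40 ± 0.09 (adjusted p = 0.00236). RPL9P9 counts were 17.6 ± 0.5% of RPL9 counts in shCtrl and 23.3 ± 0.4% in shMORC2, with no overlap between the groups. The smaller RPL9 copy RPL9P7, on the X chromosome in an intron of APOO, rose by 0.84 ± 0.11 (adjusted p = 6.08e-05), and both copies are shown because they differ from RPL9 at few bases. The stretches are coding bases 277 to 366 of RPL9, with the copies at chr15:82372523-82372612 (minus strand) and chrX:23836955-23837044 (minus strand), and capitals again mark differences from the parent.
RPL9: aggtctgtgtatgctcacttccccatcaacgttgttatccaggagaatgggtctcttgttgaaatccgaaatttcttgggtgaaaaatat
RPL9P9: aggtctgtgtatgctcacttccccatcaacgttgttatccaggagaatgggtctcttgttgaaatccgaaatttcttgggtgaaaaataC
RPL9P7: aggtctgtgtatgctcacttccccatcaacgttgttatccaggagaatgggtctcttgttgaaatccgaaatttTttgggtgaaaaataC
These are the stretches with the most differences in both copies. Only 11.7% of the windows of RPL9P9 and 14.8% of those of RPL9P7 were unique, so most 75-base reads of either copy could also have come from another locus.

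RPL15P3, an intact copy of the large-subunit gene RPL15 with an open reading frame of 615 bases, was at 108, 118 and 132 CPM in shCtrl and at 128, 157 and 152 CPM in shMORC2. Its groups overlapped. It rose by 0.29 ± 0.10 (adjusted p = 0.0297), a call kept in 7 of 11 alternatives, with adjusted p from 0.000169 to 0.136. Its counts were 47.2 ± 1.7% of RPL15 counts in shCtrl, the highest share among the 145, and 43.8 ± 1.0% in shMORC2. RPL15 rose by 0.39 ± 0.08 (adjusted p = 0.00251). Of its windows, 67.7% also occurred in an RPL15 transcript. RPL14P1, on chromosome 12 outside other genes, was at 166, 167 and 193 CPM in shCtrl and at 105, 130 and 122 CPM in shMORC2. Its groups did not overlap and it fell by 0.56 ± 0.09 (adjusted p = 0.000439), beside its parent RPL14, at 1189, 1216 and 1334 CPM in shCtrl and at 899, 968 and 913 CPM in shMORC2, which fell by 0.43 ± 0.08 (adjusted p = 0.000795). RPL14P1 was 14.0 ± 0.38% of RPL14 counts in shCtrl and 12.8 ± 1.0% in shMORC2.

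The 6 highest fold changes were taken among called pseudogenes whose groups did not overlap, so call and separation are not results here. These 6 had 124 to 3720 counts in total. RPS26P28, a copy of the small-subunit gene RPS26 in an intron of MYO10 on the same strand, received 4, 6 and 4 counts in shCtrl and 28, 26 and 56 counts in shMORC2. All 3 shMORC2 libraries were above the shCtrl libraries, and RPS26P28 rose by 2.93 ± 0.47 (adjusted p = 0.000325), with 2.49 to 3.14 over the alternatives. MYO10, at 243 ± 17.9 CPM in the shCtrl group and 255 ± 7.66 CPM in the shMORC2 group, was not called, and the parent RPS26 rose by 0.31 ± 0.09 (adjusted p = 0.0163), a call kept in 8 of 11 alternatives. RPL35P5, a copy of the large-subunit gene RPL35 outside other genes, was at 0.593, 0.875 and 0.875 CPM in shCtrl and at 2.30, 2.69 and 2.21 CPM in shMORC2 and rose by 1.62 ± 0.23 (adjusted p = 0.000118). RPL35 was at 561 ± 35.5 CPM in the shCtrl group and 644 ± 58.5 CPM in the shMORC2 group and was not called, except with the replicate block and without the first shMORC2 library (adjusted p = 0.00337 with the block). RPL15P2, a more diverged RPL15 copy than RPL15P3 and outside other genes, was at 1.46, 1.30 and 1.34 CPM in shCtrl and at 3.72, 3.17 and 4.20 CPM in shMORC2. It rose by 1.43 ± 0.18 (adjusted p = 5.1e-05), with no overlap between the groups. RPS26P6 was at 3.42, 2.79 and 3.23 CPM in shCtrl and at 8.81, 7.69 and 8.62 CPM in shMORC2 and rose by 1.41 ± 0.13 (adjusted p = 5.1e-06), although only 0.73% of its windows were unique.

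Stretches of 5 copies and of their parents are shown. The bases that differ set how far reads of a copy can be told from reads of its parent. The stretches are coding bases 150 to 239 of RPS26, 78 to 167 of RPL35, 161 to 250 of RPL15 and 478 to 567 of RPL14. Each is the 90 bases with the most differences summed over the copies shown, and every copy has further differences outside it. RPL15P3 and RPL14P1 are included as copies that were called in the same direction as their parents.
RPS26: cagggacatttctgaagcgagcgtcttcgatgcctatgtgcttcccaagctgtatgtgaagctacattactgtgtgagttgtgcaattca
RPS26P28: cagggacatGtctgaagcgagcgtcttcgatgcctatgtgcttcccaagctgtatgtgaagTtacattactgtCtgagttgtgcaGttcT
RPL35: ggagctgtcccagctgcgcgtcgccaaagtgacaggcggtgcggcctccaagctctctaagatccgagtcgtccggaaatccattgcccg
RPL35P5: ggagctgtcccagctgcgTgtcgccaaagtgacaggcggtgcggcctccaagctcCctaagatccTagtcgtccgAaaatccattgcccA
RPL15: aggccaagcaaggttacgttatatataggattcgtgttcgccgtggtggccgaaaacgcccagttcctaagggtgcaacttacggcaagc
RPL15P3: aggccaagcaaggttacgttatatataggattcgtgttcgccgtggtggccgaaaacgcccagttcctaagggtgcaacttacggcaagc
RPL15P2: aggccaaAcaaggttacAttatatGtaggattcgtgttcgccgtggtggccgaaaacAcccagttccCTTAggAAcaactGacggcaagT
RPL14: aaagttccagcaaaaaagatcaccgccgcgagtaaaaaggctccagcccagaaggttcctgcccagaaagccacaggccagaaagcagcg
RPL14P1: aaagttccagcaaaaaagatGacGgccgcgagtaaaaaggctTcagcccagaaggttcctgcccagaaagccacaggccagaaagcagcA
The copies lie at chr5:16902403-16902492 (minus strand) for RPS26P28, chr7:66606943-66607032 (minus strand) for RPL35P5, chr6:12514270-12514359 (plus strand) for RPL15P3, chr14:94801215-94801304 (minus strand) for RPL15P2 and chr12:62965802-62965891 (plus strand) for RPL14P1. Within the stretches RPS26P28 and RPL35P5 each had 5 differences, RPL15P2 had 12, RPL14P1 had 4 and RPL15P3 had 0. Elsewhere in the coding sequence RPL15P3 differed from RPL15 by C317T, A342G and C534T. Of the 75-base windows over the whole pseudogene, 88.0% were unique in RPS26P28, 89.2% in RPL35P5 and 87.6% in RPL15P2, against 27.9% in RPL15P3 and 54.1% in RPL14P1.

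The RPL23A copies were the largest family, with 17 members and a median log2 fold change of 0.57. Of the 17, 9 were called higher (52.9%) and 1 lower (5.88%), beside 19.9% and 19.6% of all genes tested. Their summed level was 311, 272 and 280 CPM in shCtrl and 448, 400 and 439 CPM in shMORC2. The groups did not overlap. RPL23AP51, opposite to an intron of UMAD1, was at 7.55, 7.59 and 7.05 CPM in shCtrl and at 23.2, 20.4 and 21.2 CPM in shMORC2 and rose by 1.54 ± 0.10 (adjusted p = 3.07e-07). All of its windows were unique, although it shares exon bases on its strand with a gene of the newer annotation that has no symbol, and UMAD1, at 16.2 ± 1.26 and 14.8 ± 0.388 CPM, was not called. RPL23AP57, opposite to an intron of GLDC, received 490, 506 and 388 counts in shCtrl and 1267, 1062 and 1175 counts in shMORC2 and rose by 1.33 ± 0.10 (adjusted p = 1.31e-06). RPL23AP18, inside a long noncoding RNA gene on its own strand, was at 3.72, 3.17 and 2.97 CPM in shCtrl and at 8.99, 7.88 and 8.41 CPM in shMORC2 and rose by 1.36 ± 0.13 (adjusted p = 7.15e-06). RPL23AP49 received 12, 15 and 3 counts in shCtrl and 44, 24 and 42 counts in shMORC2 and rose by 1.85 ± 0.45 (adjusted p = 0.00549). RPL23AP49 too reached the minimum mainly through shMORC2. All of the windows of these 3 copies were unique as well, and in all 3 the groups did not overlap. RPL23AP57 and RPL23AP18 were described after their values had been seen.

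The 4 RPL23A copies with the highest changes shared bases with most of their family rather than with each other alone. G147C and G111A were each found in 14 of the 17 copies and G348C in 16. The median log2 fold change of the 14 copies with G147C was 0.57, and that of the 3 without it was 0.41. T195C was in 12 of the 17 copies, with medians of 0.51 with it and 0.57 without. At the lower end of the family were RPL23AP74 (-0.20 ± 0.12), which was not called, RPL23AP3 (-0.40 ± 0.26), which was not called, and RPL23AP53, which is described with the pseudogenes that fell. RPL23AP82 (0.37 ± 0.07) and RPL23AP7 (0.09 ± 0.10) share exon bases in the annotation, so reads could be split between them. With the replicate block, RPL23AP63 (adjusted p = 0.0166) and RPL23AP61 (adjusted p = 0.0407) were called higher as well.

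**Figure D2:**
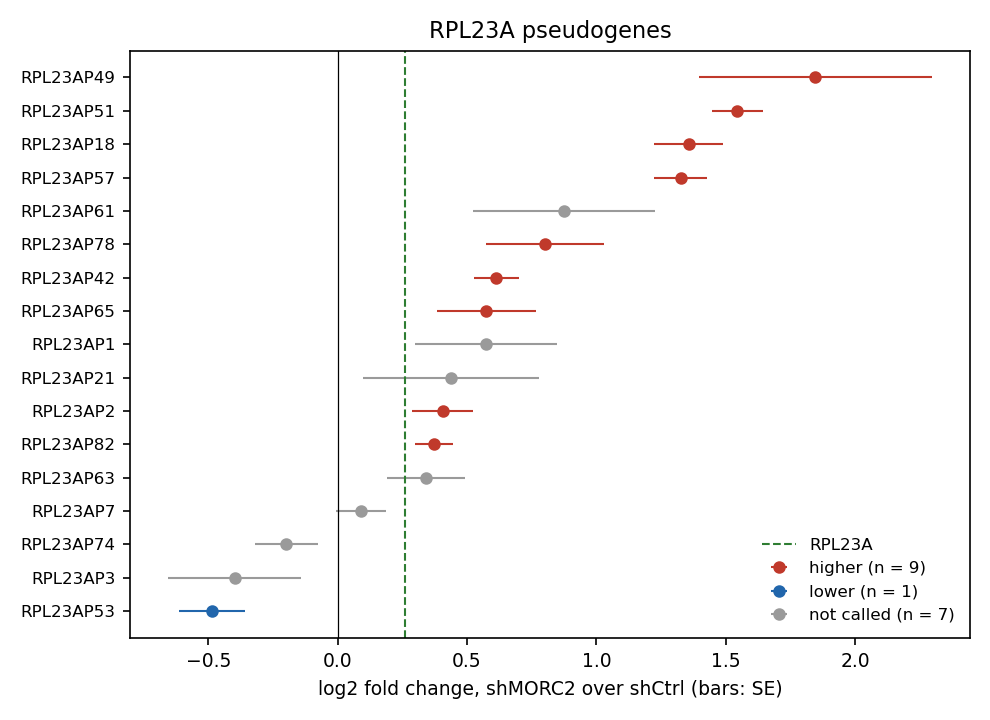
The log2 fold change of each of the 17 RPL23A pseudogenes (shMORC2 over shCtrl, horizontal axis) with its SE as a bar, coloured by call, and the change of the parent RPL23A as a dashed line at 0.26. The points run from -0.49 for RPL23AP53 to 1.85 for RPL23AP49, on both sides of the parent.

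Calls in the other families are set beside the 19.9% higher and 19.6% lower of all genes tested. RPS26 had 4 copies, of which 3 rose and 1 was not called, with a median log2 fold change of 1.19. Of these RPS26P3 rose by 0.97 ± 0.27 (adjusted p = 0.0123, kept in 9 of 11 alternatives), and RPS26P31 (0.42 ± 0.45) was not called. RPL7 had 11 copies with 3 called higher (27.3%), and RPL13A had 7 with 3 higher (42.9%). RPL12 had 8 with 2 higher (25.0%) and 1 lower (12.5%). RPL5, the second largest family with 12 copies, had 1 called higher (8.33%) and a median of 0.11. The called copy was RPL5P1 (0.48 ± 0.15, adjusted p = 0.0221, kept in 8 of 11 alternatives). Of the 4 copies of RPL3, 0 were called by edgeR, 0 by DESeq2, and 0 had an unadjusted p under 0.05, with log2 fold changes from 0.15 to 0.42. By ribosomal subunit, 43 of 109 copies of large-subunit genes were called higher (39.4%) and 5 lower (4.59%). Of 36 copies of small-subunit genes, 13 were called higher (36.1%) and 1 lower (2.78%). Whether the families differed from each other was not tested.

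The 6 pseudogenes that fell had log2 fold changes from -0.80 to -0.44, and their groups did not overlap. RPL12P28 was at 1.64, 2.08 and 1.82 CPM in shCtrl and at 1.44, 0.889 and 0.845 CPM in shMORC2 and fell by 0.80 ± 0.25 (adjusted p = 0.0208), a call kept in 8 of 11 alternatives. It shares exon bases on the same strand with ANKRD16, which was at 9.95, 10.5 and 10.4 CPM in shCtrl and at 8.18, 7.09 and 8.81 CPM in shMORC2 and fell by 0.36 ± 0.11 (adjusted p = 0.0221), kept in 8 of 11 as well. RPL32P3, an unprocessed copy with 4504 exon bases that shares some of them with a long noncoding RNA gene on its strand, was at 28.2, 30.5 and 24.8 CPM in shCtrl and at 19.5, 18.3 and 16.3 CPM in shMORC2. It fell by 0.63 ± 0.10 (adjusted p = 0.000331), whereas its parent RPL32, of the large subunit, rose by 0.24 ± 0.09 (adjusted p = 0.0379). The call of RPL32 was lost in 4 of 11 alternatives, each leaving out 1 library, with adjusted p from 0.102 to 0.140. RPL32P29 was at 11.9, 14.7 and 14.9 CPM in shCtrl and at 8.39, 10.9 and 11.2 CPM in shMORC2 and fell by 0.44 ± 0.13 (adjusted p = 0.0164). It lies over an exon of RPS29 on the same strand, and RPS29, a small-subunit gene, rose by 0.25 ± 0.08 (adjusted p = 0.0233). When single libraries were left out, the call of RPS29 was lost in 4 of 11 alternatives (adjusted p from 0.0529 to 0.0930) and that of RPL32P29 in 2 (0.0659 and 0.0661). These 3 pseudogenes thus share exon bases with another gene on their own strand.

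The other pseudogenes that fell were RPL14P1, described above, RPL23AP53 and RPS2P5. RPL23AP53 was at 9.56, 7.38 and 8.41 CPM in shCtrl and at 6.31, 5.48 and 6.32 CPM in shMORC2 and fell by 0.49 ± 0.13 (adjusted p = 0.00926), while RPL23A rose. It has exon bases opposite to ZNF596. RPS2P5, opposite to an intron of TAOK3, was at 11.1, 12.1 and 10.3 CPM in shCtrl and at 7.01, 8.94 and 8.62 CPM in shMORC2 and fell by 0.45 ± 0.12 (adjusted p = 0.00979). Its parent RPS2, of the small subunit, was at 2105 ± 214 CPM in the shCtrl group and 1582 ± 129 CPM in the shMORC2 group and fell by 0.41 ± 0.09 (adjusted p = 0.00368). The share of RPS2P5 in RPS2 counts overlapped between the groups, at 0.533 ± 0.060% in shCtrl and 0.516 ± 0.024% in shMORC2. The host TAOK3 (-0.06 ± 0.08) was not called.

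**Figure D3:**
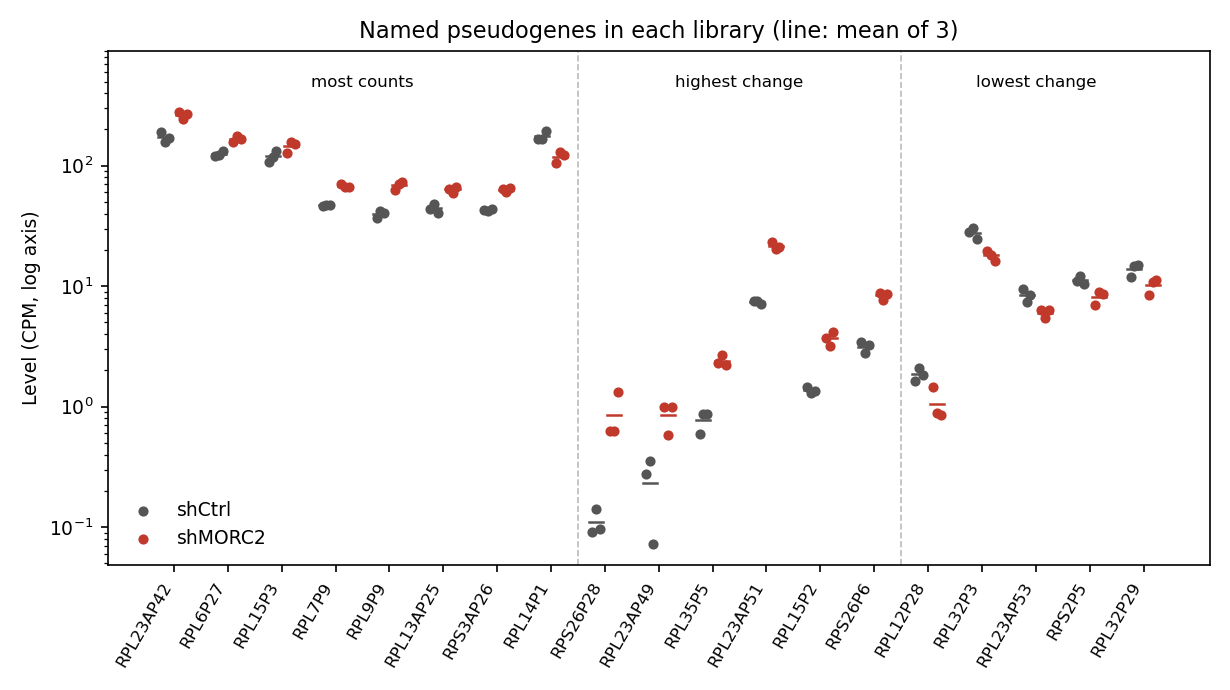
The level (CPM, log axis) of 19 named pseudogenes in each of the 3 shCtrl and 3 shMORC2 libraries (points), with group means as lines. They are the 8 with the most counts and the highest and lowest fold changes among called members whose groups did not overlap. RPL14P1 belongs to both the most counted and the lowest and is drawn once, and RPL15P3 is the member whose groups overlap.

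Compared with their parents, 114 of the 145 pseudogenes had the higher log2 fold change, and the median difference was 0.34. Of the 79 cytosolic ribosomal protein genes, 28 were called higher (35.4%) and 10 lower (12.7%), beside 19.9% and 19.6% of all genes tested. With the replicate block 35 were called higher and 16 lower. The fold changes of the 79 ran from -0.43 to 0.82 with a median of 0.09. Those called with the highest fold changes were RPLP1 (0.82 ± 0.08), a gene of the ribosomal stalk, RPS13 (0.77 ± 0.08) and RPL39 (0.72 ± 0.09), and those with the lowest were RPL14 and RPS2, given above, with the paralog RPL22L1 (-0.47 ± 0.15), whose groups overlapped and whose call was kept in 8 of 11 alternatives. Of the 46 parents of the pseudogenes, 15 were called higher (32.6%) and 7 lower (15.2%), with a median of 0.03. Of the 48 pseudogenes whose parent was called higher, 25 rose (52.1%) and 3 fell (6.25%). Of the 85 whose parent was not called, 29 rose (34.1%) and 1 fell (1.18%). Of the 12 whose parent was called lower, 2 rose (16.7%) and 2 fell (16.7%). RPS10P3 (0.69 ± 0.17, adjusted p = 0.00614) and RPS2P46 (0.32 ± 0.11, adjusted p = 0.0398, kept in 5 of 11 alternatives) were the 2 that rose beside a parent that fell, and they were named after their values had been seen. Across the 145 pseudogenes, Spearman's rho between the change of the copy and that of its parent was 0.35, where copies of 1 family share the parent's value and the same 6 libraries. The ratio of pseudogene to parent counts was above in every shMORC2 library for 58 members, below in every one for 9, and overlapped for 78. Such a ratio was not formed for other genes, so it has no share over all genes beside it. On CPM, a different measure, 25.1% of all genes tested were separate in each direction.

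**Figure D4:**
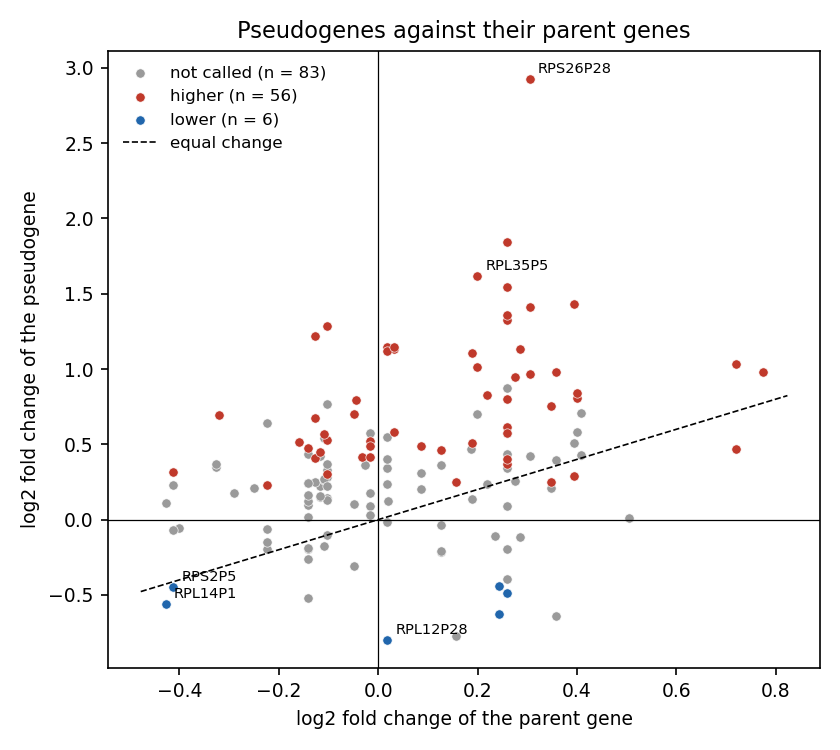
The log2 fold change of each pseudogene (vertical axis) against that of its parent gene (horizontal axis), coloured by the pseudogene's call, with a dashed line where both are equal. Of the 145 points, 114 lie above the line, and RPL14P1 and RPS2P5 lie near it at the lower left.

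Likeness to the parent bears on which reads can be assigned to a copy. The median identity to the parent transcript was 95.7% (range 67.2 to 100%), and a median of 88.9% of the 75-base windows of a member were unique. All windows were unique in 36 pseudogenes, and 8 of them rose. That is 22.2%, beside 19.9% of all genes tested and 16.6% of those with 120 to under 600 counts. Of the 36, 2 fell (5.56%), and the median log2 fold change of the 36 was 0.21. Their summed level was 73.8 ± 2.89 CPM in the shCtrl group and 112 ± 7.93 CPM in the shMORC2 group, and most of that difference lay in 4 RPL23A copies, RPL23AP57, RPL23AP51, RPL23AP18 and RPL23AP49, which summed to 21.8 ± 1.96 CPM in the shCtrl group and 58.1 ± 3.68 CPM in the shMORC2 group. The other 32 summed to 52.1 ± 1.86 CPM and 54.2 ± 5.83 CPM with overlapping groups, and 4 of them rose and 2 fell. This split was made after the values had been seen. Of the 80 with 50 to under 100% unique windows, 31 rose (38.8%) and 3 fell, and of the 29 with under 50%, 17 rose (58.6%) and 1 fell. The called pseudogenes therefore included copies at both ends, from RPL23AP51 with all windows unique to RPL41P5, a copy identical to RPL41 with no unique window, which rose by 0.75 ± 0.10 (adjusted p = 0.000105). By identity, 15 of the 23 copies with at least 99% rose (65.2%), and 31 of the 57 with 95 to under 99% rose (54.4%) and 2 fell. Of the 65 under 95%, 10 rose (15.4%) and 4 fell (6.15%), while 49 were above 0 and the median log2 fold change was 0.25. All genes with 120 to under 600 counts had 16.6% higher and 11.0% lower. Among the copies with at least 99% identity, 0 were called lower by edgeR or by DESeq2, and 1 had an unadjusted edgeR p under 0.05 in that direction. The more identical copies also had more counts, with medians of 3983, 652 and 278 total counts in the 3 classes. Among members with at least 600 counts, 14 of 21, 20 of 30 and 4 of 17 rose in the same order of classes. These were 66.7, 66.7 and 23.5%, beside 22.8% of all genes tested with at least 600 counts. Over the 145 members, Spearman's rho of the fold change was -0.10 with the percentage of unique windows and -0.32 with length. The part of reads shared with the parents in these differences was not tested, because the reads were not analysed here.

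**Figure D5:**
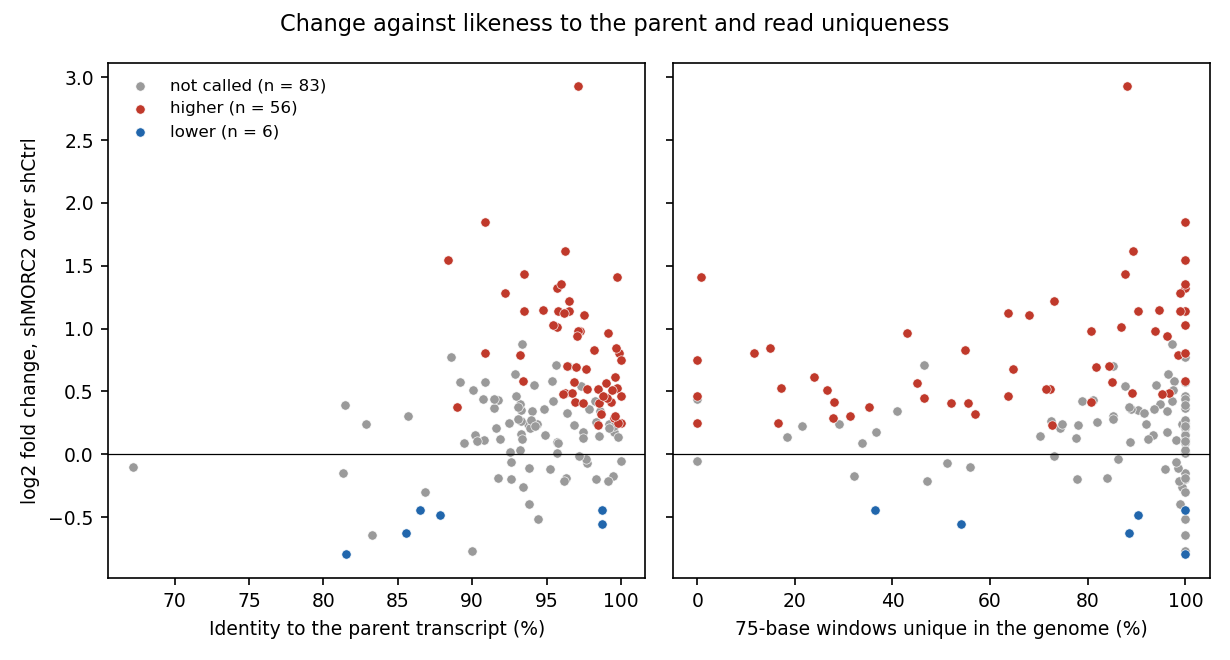
The log2 fold change of each pseudogene (vertical axis) against its identity to the parent transcript (left, %) and against the percentage of its 75-base windows that are unique in the genome (right, %), coloured by call. Pseudogenes called higher are found from 0 to 100% unique windows, and 4 of the 6 called lower are below 95% identity.

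The surroundings of the insertions were also compared, beside the 19.9% higher and 19.6% lower of all genes tested. Outside protein-coding and long noncoding RNA genes lay 66 of the pseudogenes. Of these, 29 rose (43.9%) and 2 fell (3.03%), with a median log2 fold change of 0.42. Inside a gene on the same strand, 13 of 37 rose (35.1%) and 3 fell (8.11%), with a median of 0.27. Inside a gene on the opposite strand, 14 of 42 rose (33.3%) and 1 fell (2.38%), with a median of 0.29. All 3 medians were thus above that of all genes tested, and differences between them were not tested. Of the 126 pseudogenes whose exons overlap no exon of another gene, 50 rose and 2 fell. Of the 10 with exon overlap on the same strand, 2 rose and 3 fell, and of the 9 with overlap on the opposite strand only, 4 rose and 1 fell. An open reading frame at least 95% as long as the parent's coding sequence was present in 39 members, of which 19 rose, and the other 106 held 37 that rose and the 6 that fell. Among the 39, 0 were called lower by edgeR or by DESeq2, and 1 had an unadjusted edgeR p under 0.05 in that direction.

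Copies of genes outside the ribosome were examined as the most similar set. Among 156 processed pseudogenes of 33 other widely expressed parent genes that reached the same minimum, 56 rose (35.9%) and 5 fell (3.21%). All genes tested had 19.9% higher and 19.6% lower. The median log2 fold change of the 156 was 0.33. Their summed level was 2752 ± 82.9 CPM in the shCtrl group and 3093 ± 13.9 CPM in the shMORC2 group. The newer annotation held 480 processed pseudogenes of other genes that passed the filter and had at least 120 counts. Of these, 135 rose (28.1%) and 28 fell (5.83%), with a median of 0.26. Protein-coding genes with at least 120 counts numbered 12726, of which 2854 rose (22.4%) and 2953 fell (23.2%), with a median of -0.02. In both kinds of pseudogenes more were called higher than lower, and no test compared them. Among all genes with 120 to under 600 counts, 728 of 4390 rose (16.6%) and 483 fell (11.0%). Of the 77 ribosomal protein pseudogenes in that range, 18 rose (23.4%) and 1 fell (1.30%).

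Low counts and other cell types bear on these values as follows. In 15 of the 145 pseudogenes 1 group alone held fewer than 60 counts, so the larger part of their counts came from the other group. The excess could be small, as in RPS24P17 with 18, 25 and 15 counts in shCtrl and 18, 21 and 24 in shMORC2. Of the 15, 7 were called higher, among them RPS26P28 and RPL23AP49. For the 7 the other group was shMORC2, so the direction of their calls is tied to how they entered. Of all genes tested with 120 to under 600 counts, 16.6% were called higher. In each library, 67.0 to 70.7% of the genes with 1 to 10 counts had an even count, so both reads of a pair may have been counted and a low count may stand for fewer fragments. Of 7 markers of blood, stroma and endothelium, 3 were tested (COL1A1, PECAM1 and VWF) and 4 did not pass the filter on low counts. Of the 3, VWF was called higher (0.54 ± 0.17, adjusted p = 0.0238, kept in 6 of 11 alternatives), and with the replicate block PECAM1 was too (adjusted p = 0.00587). The summed level of the 7 was 25.9 to 27.8 CPM in shCtrl and 31.3 to 32.8 CPM in shMORC2, with PTPRC and DCN at 0 in shCtrl and their part in the result not tested. The mitochondrial share of counts was 7.04 to 8.90% over the 6 libraries, with overlapping groups.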

How the data were processed

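RNA of SW480 cells was taken up in Trizol and made into libraries with a stranded mRNA kit that carries molecular identifiers. The authors deposited whole-number counts per gene, and the submitters' processing notes name Trimmomatic 0.36, STAR 2.5.3a, featureCounts, Subread 1.5.1, edgeR 3.12.1 and GRCh38. The strand setting, the handling of reads with several matches, the annotation release and the use of the identifiers are not given in the sources used here. The deposited RPKM and splicing tables were not used, and 0 per-library columns lay outside the series.

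Counts of 3 shMORC2 and 3 shCtrl libraries were compared with edgeR 4.0.16 (R 4.3.3: filterByExpr, TMM scaling, quasi-likelihood test, Benjamini-Hochberg adjustment over 21005 genes, threshold 0.05), which was tested on simulated data. SE is the log2 fold change over the root of F. Alternatives were DESeq2 1.42.0, other filters and scaling, a replicate block, leaving out each library, and other member rules. The deviations of same-numbered libraries from their group means were correlated (correlations of 0.215, 0.111 and 0.102 over numbers 1, 2 and 3), so the numbers were taken to pair the libraries, from the values alone, as no label says what a number marks. Replicates differed by more than sampling noise (chi-square per degree of freedom of 6.35 to 21.5).

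The members and lists were chosen with earlier results of these data known. Named were MORC2, the 8 members with the most counts, the 6 highest and 6 lowest fold changes among called members whose groups did not overlap, the 3 members on either side of the minimum, their parents and hosts, and the 3 highest and 3 lowest called ribosomal protein genes or paralogs. Other genes named in the text were chosen after their values were seen. Coordinates and exons of the members came from the deposited gene table, and surrounding genes and parent transcripts from GENCODE v44. Sequences were read from GRCh38, and identity was taken with BLAST+ 2.17.0. A 75-base window was called unique where its exact sequence occurred once in the genome, on either strand, and in no transcript of the parent. Reads with mismatches were not considered.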

Additional observations from a re-analysis of the deposited data

How the results depend on the processing

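Of the single genes' values under the alternatives, 432 kept direction and side of the threshold, 30 lost the call, 5 gained it and 6 changed sign. The sign changed for 2 parents that were never called: RPL13A, from -0.10 to 0.04 over the fits that left out 1 library (0.034, 0.022 and 0.036 when replicate 2 or 3 of shCtrl or replicate 1 of shMORC2 was absent), and RPL12, from -0.061 to 0.082 (-0.061, -0.014 and -0.011 when replicate 1 of shCtrl or replicate 2 or 3 of shMORC2 was absent). Of the 62 called pseudogenes, 36 were called in every fit that left out a library, 51 by DESeq2, and 0 changed sign in any alternative.

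Leaving out 1 library gave 35 to 52 pseudogenes called higher (35 without shCtrl replicate 2) and 4 to 6 lower. For the ribosomal protein genes it gave 16 to 33 higher (16 and 18 without shMORC2 replicates 2 and 3) and 4 to 13 lower (5 and 4 without shCtrl replicates 2 and 3), and for the other processed pseudogenes 37 to 52 higher (37 without shMORC2 replicate 3) and 2 to 6 lower (2 without shCtrl replicate 2 and 2 without shMORC2 replicate 2). Fewer libraries enter these fits, and of all genes they called 3259 to 4258 higher and 3009 to 4175 lower, beside 4185 and 4116 with all libraries. The replicate block gave 66 pseudogenes higher and 8 lower, and 35 ribosomal protein genes higher and 16 lower. Beside the calls it added for RPL35, BAIAP2L1, RPL23AP61, RPL23AP63 and the markers KRT19, CDH1 and PECAM1, it changed no call given for a gene named above. A log2 fold change of at least 1 left 18 pseudogenes higher and 0 lower. The lowest edgeR log2 fold change of any member was -0.80, so 0 lower holds there at any p. DESeq2 gave 0 lower as well. Among pseudogenes with no exon overlap 2 were lower, and among those that also had at least 50% unique windows, a rule chosen after seeing the data, 35 were higher and 1 lower. With all genes that had at least 1 count, 8 other processed pseudogenes were lower, and the cause was not tested. The summed log2 ratio of the members stayed between 0.29 and 0.34, and that of pseudogenes over parents between 0.27 and 0.37. Without TMM scaling the median of all genes was -0.01 and that of the members 0.36.

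Reads shared with parents, the unstated number of lines and low counts limit these values. Below 600 total counts, 18 of 77 members (23.4%) were called higher, beside 16.6% of all genes with 120 to under 600 counts.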

Other observations

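Pseudogenes of the ribosomal stalk gene RPLP0 and of RPSA have symbols that the pattern did not take in. Among 13 of them with at least 120 counts, 2 rose (15.4%) and 1 fell (7.69%), beside 19.9% and 19.6% of all genes tested. RPSAP58 was at 161, 169 and 182 CPM in shCtrl and at 244, 258 and 258 CPM in shMORC2 and rose by 0.57 ± 0.07 (SE, adjusted p = 7.07e-05), while its parent RPSA, of the small subunit, was at 724, 842 and 864 CPM in shCtrl and at 591, 693 and 672 CPM in shMORC2 and fell by 0.31 ± 0.09 (adjusted p = 0.0141, kept in 9 of 11 alternatives). The groups of neither gene overlapped. RPSAP47 rose by 0.62 ± 0.14 (adjusted p = 0.0033), and RPLP0P6, at 140, 159 and 174 CPM in shCtrl and at 114, 137 and 132 CPM in shMORC2, fell by 0.30 ± 0.09 (adjusted p = 0.0215). These genes were named after their values had been seen.

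The 514 ribosomal protein pseudogenes with 1 count or more but under the minimum summed to 42.1 ± 4.53 CPM in the shCtrl group and 45.8 ± 3.82 CPM in the shMORC2 group (SD, n = 3 each), with overlapping groups. Of these, 67 passed the filter on low counts, 4 were called higher (5.97% of the 67) and 1 lower (1.49%), beside 19.9% and 19.6% of all genes tested. All genes tested had a median of 2172 total counts, so those shares come mostly from genes with more counts. Of the 67, 45 were above 0, and their median log2 fold change was 0.32.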
